A study of Mus musculus with 12 samples.

Results

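The gene set described here is the extracellular route that makes, senses and removes lysophosphatidic acid (LPA) in cultured mouse vascular smooth muscle cells. It holds 9 of the 55487 genes measured: Enpp2, which encodes autotaxin, the LPA receptor genes Lpar1, Lpar2, Lpar3, Lpar4 and Lpar6, and the lipid phosphatase genes Plpp1, Plpp2 and Plpp3. The set was chosen by the CPM of Enpp2 under PDGF-BB, where its RNA was far lower in labelled TIGAR knockout than in wild-type cells, and filled with the receptor and phosphatase genes by name. The comparison of genotypes under PDGF-BB is therefore given as a description, with no test, for every gene, and so are the PDGF-BB values of Enpp2.

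The libraries form 4 groups of 3. These are primary cells labelled TIGAR knockout and given PDGF-BB, wild-type cells given PDGF-BB, untreated cells labelled TIGAR knockout and untreated wild-type cells. PDGF-BB, a platelet growth factor that drives smooth muscle growth and migration, was given at 40 µg/L for 6 h. All cells came from mice aged 4 to 6 weeks and were used at passages 4 to 6 in medium with serum. The labels name neither the knockout allele nor the source of each library (a mouse, a pool or a dish), so that p-values cover only the spread between libraries, which may be technical. The study set out to profile how wild-type and knockout cells differ when PDGF-BB is present.

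Autotaxin is a secreted enzyme that cleaves lysophosphatidylcholine to LPA, a bioactive lipid present in plasma. LPA acts on G protein-coupled receptors, of which the products of Lpar1, Lpar2 and Lpar3 belong to the EDG family and those of Lpar4 and Lpar6 to the P2Y-related receptors. The products of Plpp1, Plpp2 and Plpp3 are membrane phosphatases that face the outside of the cell and remove the phosphate from LPA and related lipids. In the vessel wall LPA is known as a stimulus of smooth muscle migration and growth.

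Values are CPM, read counts scaled so that each library sums to 1000000. Library totals ranged from 14953807 to 21698488 reads, so that at the lowest depth 1 read is 0.0669 CPM. Tigar, the gene labelled as knocked out, was higher and not lower under that label, without overlap of libraries. With PDGF-BB it stood at 14.6 to 16.2 CPM in labelled knockout and 11.5 to 12.6 CPM in wild-type cells. Without it Tigar stood at 10.0 to 12.2 CPM in labelled knockout and 6.91 to 8.61 CPM in wild-type cells. That untreated difference was 0.52 on the log2(CPM + 1) scale (SE 0.11, adjusted p = 0.00209 by limma-trend). The table gives 1 value per gene, so a deleted exon could not be looked for. Every difference below is therefore between libraries by their labels. Of 10 smooth muscle markers, 8 or 9 reached a mean of 1 CPM in each group. Des was below 1 CPM in every group and Myocd in wild-type cells with PDGF-BB (0.526 CPM), and Tagln had group means of 3.41 to 6.93 CPM. All 8 endothelial and all 6 macrophage markers also reached 1 CPM in every group, so these counts show detection, not cell identity. Wild-type PDGF-BB replicate 1 stood apart. Its root mean square log2 distance from its group was 0.416, against 0.143 to 0.293 for the other 11 libraries. Its deviations also ran with exon length (Spearman's rho -0.577), longer genes reading lower. For replicates 2 and 3 rho was 0.431 and 0.526, and in the other groups it lay between -0.254 and 0.169. The wild-type PDGF-BB values below, those per kb among them, include this library, and the part of length in them was not tested.

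Promoters are shown for the 3 genes of the set that PDGF-BB raised in both genotypes, Lpar1, Plpp2 and Plpp3, so that the sequence at their starts can be read beside those values. RefSeq windows of GRCm38.p6, running from 250 bases before to 50 bases after an annotated start, matched 7 of the 9 genes. They are printed 5′ to 3′ on the gene's strand: Lpar1 at chr4:58553442-58553741 (minus strand, the outermost of 3 annotated starts), Plpp2 at chr10:79533738-79534037 (minus) and Plpp3 at chr4:105157097-105157396 (plus). Capitals mark the GC box, the letters GGGCGG on either strand.
Lpar1: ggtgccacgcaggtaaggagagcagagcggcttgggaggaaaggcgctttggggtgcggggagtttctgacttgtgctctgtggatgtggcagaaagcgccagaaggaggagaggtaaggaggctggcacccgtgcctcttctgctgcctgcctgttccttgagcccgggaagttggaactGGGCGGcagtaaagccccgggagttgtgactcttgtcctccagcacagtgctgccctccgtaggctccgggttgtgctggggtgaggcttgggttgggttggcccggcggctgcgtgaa
Plpp2: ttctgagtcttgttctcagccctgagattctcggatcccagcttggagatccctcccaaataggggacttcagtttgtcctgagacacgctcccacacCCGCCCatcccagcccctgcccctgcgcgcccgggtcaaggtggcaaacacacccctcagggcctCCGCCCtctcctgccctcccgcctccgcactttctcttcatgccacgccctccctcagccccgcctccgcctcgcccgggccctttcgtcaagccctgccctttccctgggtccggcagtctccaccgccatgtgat
Plpp3: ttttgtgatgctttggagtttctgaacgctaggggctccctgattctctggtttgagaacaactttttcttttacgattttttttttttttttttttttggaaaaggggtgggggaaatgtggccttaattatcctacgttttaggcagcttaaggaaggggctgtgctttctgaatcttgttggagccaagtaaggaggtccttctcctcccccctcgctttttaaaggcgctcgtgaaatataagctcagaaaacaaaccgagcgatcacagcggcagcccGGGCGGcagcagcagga
The GC box occurred 1 time in the Lpar1 window, 2 times in that of Plpp2 and 1 time in that of Plpp3. It is a frequent motif, held by 35.7% of the 32851 mouse windows. The letters TGANTCA of the AP-1 motif (in 7.81% of all windows), TATAAA (13.6%) and the CArG box of serum response factor (1.63%), each searched on both strands, were in none of the 3 windows. These are matches of letters, not measured sites.

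Enpp2 was the gene of the set with the widest gap between genotypes. Enpp2 (ENSMUSG00000022425, chromosome 15, 54838901 to 54952892, minus strand, GRCm38.p6) had 7.65, 8.27 and 7.06 CPM in labelled knockout cells with PDGF-BB, against 50.1, 52.8 and 49.9 CPM in wild-type cells with PDGF-BB. In untreated cells it had 12.5, 8.43 and 8.95 CPM in labelled knockout, against 44.4, 43.9 and 42.3 CPM in wild-type. Of its exonic bases, 5.97% overlap the gene model Gm26684 on the other strand. Every labelled knockout library was below every wild-type library, on 113 to 191 reads per labelled knockout library and 705 to 862 per wild-type library. The rule that chose the gene names its PDGF-BB values, not the untreated ones. The choice was made with earlier results of these data known, and the fit takes its spread from all 12 libraries. In untreated cells Enpp2 fell by 2.04 on the log2(CPM + 1) scale in labelled knockout cells (SE 0.12, adjusted p = 4.36e-08 by limma-trend). The 95% interval was -2.29 to -1.79, and the mean was at 22.9% of wild-type. Over the alternative settings the adjusted p of this difference ranged from 2.32e-56 to 1.13e-06. With PDGF-BB the labelled knockout mean was 15.0% of wild-type and the log2 difference was -2.59 (SE 0.12), a description only.

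Enpp2 also parted by direction under PDGF-BB. Its mean was 7.66 ± 0.605 CPM (SD, n = 3) with PDGF-BB and 9.96 ± 2.21 CPM without it in labelled knockout cells, each treated library below each untreated one. The mean in wild-type cells was 50.9 ± 1.60 CPM with PDGF-BB and 43.5 ± 1.11 CPM without it, each treated library above each untreated one. The log2 differences were -0.32 (SE 0.12) in labelled knockout and 0.22 (SE 0.12) in wild-type cells, not tested because these values chose the gene. Untreated replicate 1 of the labelled knockout cells was the highest of its group at 12.5 CPM, and without it the labelled knockout difference was -0.16.

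**Figure D1:**
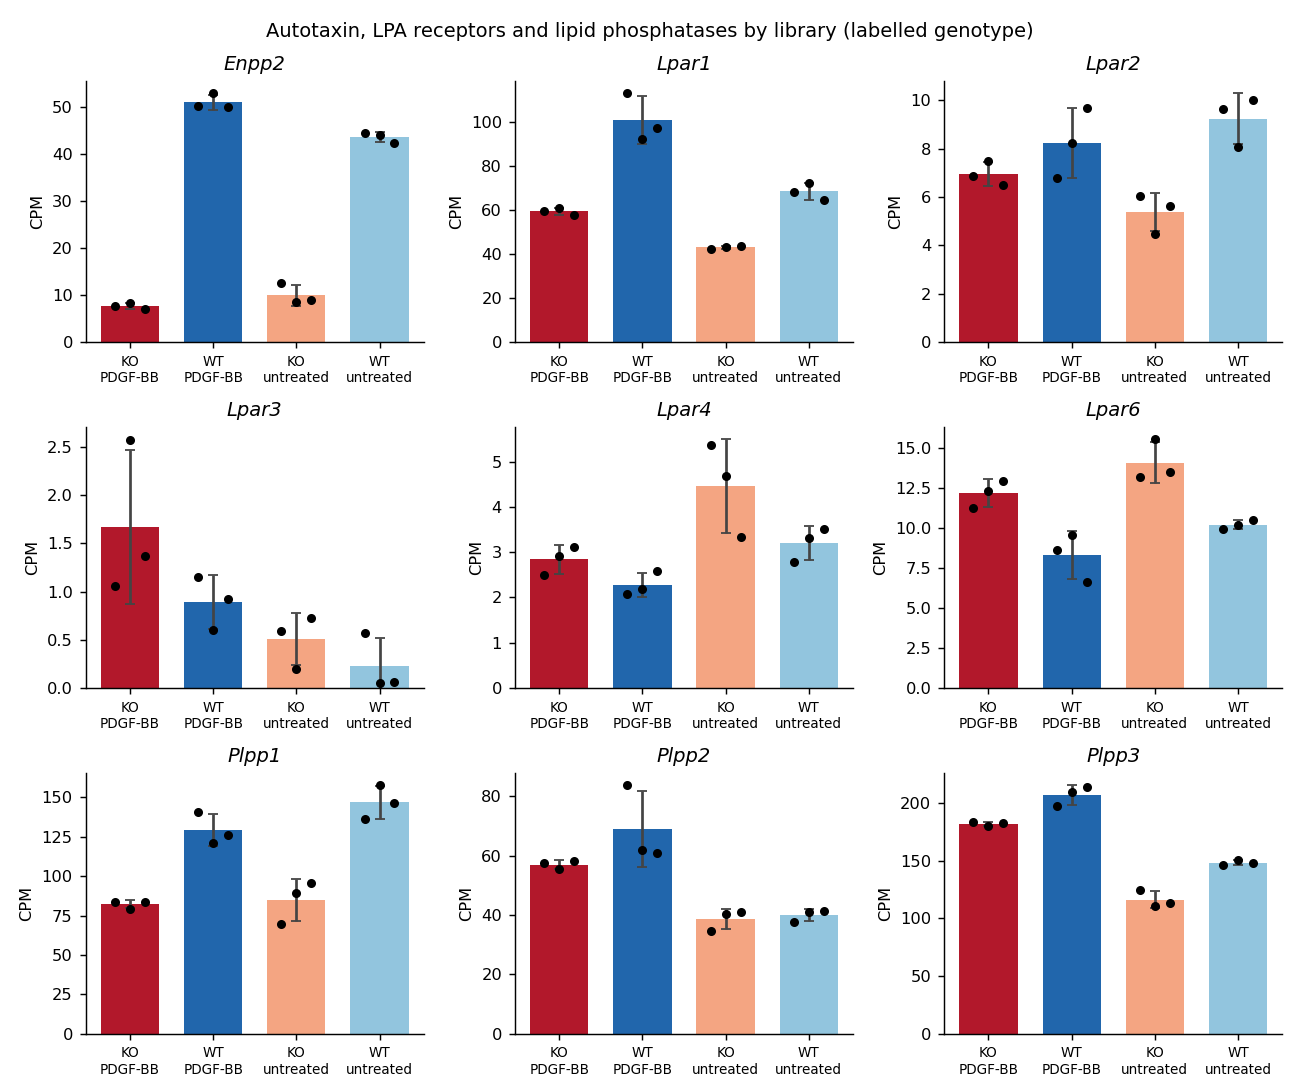
CPM of each of the 9 genes in the 12 libraries, 1 panel per gene with its own axis from 0, in the order labelled knockout then wild-type with PDGF-BB, and labelled knockout then wild-type untreated. Points are libraries, bars are group means and error bars are SD over 3 libraries; Enpp2 lies between 7.06 and 12.5 CPM in the labelled knockout libraries and between 42.3 and 52.8 CPM in the wild-type ones.

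Untreated cells were the comparison of genotypes that could be tested for the whole set. Of the 9 genes, 6 differed between labelled knockout and wild-type, 5 of them lower (Enpp2, Lpar1, Lpar2, Plpp1, Plpp3) and 1 higher (Lpar6). Over all 14202 genes tested, 34.0% were called, 24.8% lower and 9.15% higher. The median log2 difference was -0.35 over the 9 genes and -0.13 over all genes. Enpp2, whose low values in labelled knockout cells with PDGF-BB chose the set, is among the 5 lower genes and in that median. TMM scaling, which sets libraries by the bulk of their genes, moved the median of all genes by 0.12, and the share of calls that were higher was then 48.7%, against 27.0% here. The 6 genes kept their direction and their call under TMM scaling.

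Lpar1, whose product is the most widely expressed LPA receptor, was lower in labelled knockout cells. Lpar1 (ENSMUSG00000038668, chromosome 4, 58435255 to 58553898, minus strand) had 42.1, 43.3 and 43.4 CPM in labelled knockout untreated libraries, against 68.1, 72.4 and 64.5 CPM in wild-type untreated ones. The groups did not overlap, and the log2 difference was -0.66 (SE 0.08, adjusted p = 2.60e-05 by limma-trend). With PDGF-BB it had 59.2, 60.9 and 57.7 CPM in labelled knockout, against 112.7, 91.9 and 97.2 CPM in wild-type cells, again without overlap and with replicate 1 of wild-type the highest.

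The other EDG-type receptors were low. Lpar2 (ENSMUSG00000031861, chromosome 8, 69822429 to 69831102, plus strand) had 6.02, 4.48 and 5.62 CPM in labelled knockout untreated libraries, against 9.64, 8.04 and 10.0 CPM in wild-type untreated ones, a log2 difference of -0.69 (SE 0.14, adjusted p = 0.00181 by limma-trend). With PDGF-BB its groups overlapped, at 6.87, 7.49 and 6.50 CPM in labelled knockout and 6.80, 8.24 and 9.69 CPM in wild-type cells. Lpar3 (ENSMUSG00000036832, chromosome 3, 146220963 to 146286186, plus strand) was near the limit of detection in untreated cells, with 0.589, 0.201 and 0.723 CPM in labelled knockout and 0.567, 0.0509 and 0.0596 CPM in wild-type libraries. Those wild-type values rest on 1 to 9 reads, and the genotypes overlapped.

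Of the P2Y-related receptors, Lpar6 was called higher in labelled knockout cells and Lpar4 was not called. Lpar6 (ENSMUSG00000033446, chromosome 14, 73237895 to 73243294, plus strand) had 13.2, 15.5 and 13.5 CPM in labelled knockout untreated libraries, against 9.89, 10.2 and 10.5 CPM in wild-type untreated ones. It was higher by 0.42 on the log2 scale (SE 0.12, adjusted p = 0.0155 by limma-trend), a call that was lost without labelled knockout untreated replicate 2 (0.35, adjusted p = 0.0734) or wild-type untreated replicate 1 (0.40, adjusted p = 0.0524). With PDGF-BB its libraries again did not overlap, at 11.2, 12.3 and 12.9 CPM in labelled knockout and 8.62, 9.57 and 6.62 CPM in wild-type cells. Lpar6 lies within an intron of Rb1, and 7.56% of its exonic bases overlap exons of Rb1 on the other strand. The strand setting of the counting is not given in the sources used here, so reads from such bases cannot be told apart.

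Lpar4 (ENSMUSG00000049929, chromosome X, 106920625 to 106933900, plus strand) had 5.37, 4.68 and 3.34 CPM in labelled knockout untreated libraries, against 2.77, 3.31 and 3.52 CPM in wild-type untreated ones. The libraries overlapped through replicate 3 of the labelled knockout cells, and the log2 difference of 0.37 (SE 0.15) did not pass (adjusted p = 0.0757 by limma-trend). It passed under TMM scaling (0.47, adjusted p = 0.0300), with edgeR (0.60, adjusted p = 0.0323) and DESeq2 (0.62, adjusted p = 0.0283), without that replicate 3 (0.52, adjusted p = 0.0163), and without wild-type PDGF-BB replicate 1 (adjusted p = 0.0492). With PDGF-BB the groups overlapped, at 2.49, 2.92 and 3.12 CPM in labelled knockout and 2.06, 2.19 and 2.57 CPM in wild-type cells.

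Among the phosphatases, Plpp1 had the widest gap between genotypes. Plpp1 (ENSMUSG00000021759, chromosome 13, 112800792 to 112867894, plus strand) had 69.8, 89.5 and 95.6 CPM in labelled knockout untreated libraries, against 136, 158 and 146 CPM in wild-type untreated ones. The groups did not overlap, and Plpp1 fell by 0.79 on the log2 scale in labelled knockout cells (SE 0.10, adjusted p = 6.22e-05 by limma-trend). With PDGF-BB the values were 83.4, 79.4 and 83.8 CPM in labelled knockout and 140.7, 121 and 126 CPM in wild-type cells, also apart. Of the exonic bases of Plpp1, 25.8% overlap Mtrex on the other strand, with the same limit as for Lpar6.

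Plpp3, a phosphatase needed for vascular development in the mouse embryo, differed less. Plpp3 (ENSMUSG00000028517, chromosome 4, 105157347 to 105232764, plus strand) had 125, 111 and 113 CPM in labelled knockout untreated libraries, against 147, 151 and 148 CPM in wild-type untreated ones. It fell by 0.35 on the log2 scale in labelled knockout cells (SE 0.06, adjusted p = 0.000594 by limma-trend), and by 0.22 under TMM scaling (adjusted p = 0.0169). Plpp2 (ENSMUSG00000052151, chromosome 10, 79526430 to 79533796, minus strand) overlapped between genotypes in untreated cells, at 34.7, 40.2 and 41.2 CPM in labelled knockout and 37.7, 41.1 and 41.5 CPM in wild-type libraries. Its log2 difference was -0.05 (95% interval -0.29 to 0.18, adjusted p = 0.747 by limma-trend).

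Markers of smooth muscle and of other cell types moved with the genotype label. Of all genes 34.0% were called between untreated genotypes. With PDGF-BB 42.4% were called in labelled knockout and 59.4% in wild-type cells, and 3.92% in the interaction. Of 10 smooth muscle markers 9 were measured, and 5 were called higher in labelled knockout untreated cells, with summed levels of 4286 to 6010 CPM in labelled knockout and 4328 to 4917 CPM in wild-type libraries. With PDGF-BB the sums were 5030 to 5171 CPM in labelled knockout and 2850 to 3191 CPM in wild-type libraries. PDGF-BB raised 2 and lowered 3 of the smooth muscle markers in labelled knockout cells, 2 and 1 under TMM scaling. It raised 1 and lowered 5 in wild-type cells, and 2 were called higher in the interaction. Myocd reached 1 CPM in no wild-type library with PDGF-BB, so its change there was in part fixed by the filter. In untreated cells 8 of 8 endothelial markers were called higher in labelled knockout cells, with a summed level of 678 to 778 CPM in labelled knockout and 143 to 156 CPM in wild-type libraries. With PDGF-BB that sum was 620 to 643 CPM in labelled knockout and 110 to 115 CPM in wild-type libraries. In untreated cells 6 of 6 macrophage markers were called lower, with sums of 29.9 to 35.5 CPM in labelled knockout and 125 to 134 CPM in wild-type libraries. With PDGF-BB they summed to 30.5 to 34.1 CPM in labelled knockout and 96.0 to 135.9 CPM in wild-type libraries.

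Other lists differed as well. Of 6 fibroblast markers 5 were measured and 2 called higher in untreated cells, with sums of 1248 to 1534 CPM in labelled knockout and 308 to 347 CPM in wild-type libraries, and with PDGF-BB of 858 to 891 CPM in labelled knockout and 192 to 236 CPM in wild-type libraries. Most of that sum was Col14a1, at 1257 CPM in labelled knockout and 210 CPM in wild-type untreated cells, while Pdgfra had 84.7 CPM in labelled knockout and 101 CPM in wild-type and Dcn 12.7 CPM in labelled knockout and 14.1 CPM in wild-type untreated cells, neither called. Pi16, called with Col14a1, reached 1 CPM in 7 libraries, mostly labelled knockout ones, so its call was in part fixed by the filter. The median log2 difference of the 5 markers was -0.13. Of 5 Schwann cell markers 2 were measured and both called lower in untreated cells, with sums of 15.4 to 16.9 CPM in labelled knockout and 42.4 to 50.4 CPM in wild-type libraries. With PDGF-BB they summed to 12.3 to 13.2 CPM in labelled knockout and 34.9 to 55.4 CPM in wild-type libraries, and Sox10 was at 0 in every library. Of 5 epithelial markers 2 were measured and 1, Krt18, was called higher in untreated cells. The sums were 16.7 to 20.1 CPM in labelled knockout and 3.97 to 5.0 CPM in wild-type libraries, where Epcam and Krt8 were at 0. Most of that sum in labelled knockout cells was Krt18, at 17.7 CPM against 3.14 CPM in wild-type untreated cells. Krt19, not called, had 0.738 CPM in labelled knockout and 1.20 CPM in wild-type untreated cells. Epcam had 0.0845 CPM and Krt8 0.0185 CPM in labelled knockout untreated cells. Adipocyte markers, of interest because fat tissue is a known source of autotaxin, summed to at most 0.315 CPM in any library. The part of the smooth muscle, endothelial, macrophage, fibroblast, Schwann cell and epithelial markers in the differences of the set was not tested. In bulk RNA, fewer cells of a type and less RNA per cell cannot be told apart.

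PDGF-BB raised 3 genes of the set in both genotypes, Lpar1, Plpp2 and Plpp3. Lpar3 is given as a description with no test, because it passed the filter on low values only through treated libraries and so had to differ. In labelled knockout cells 4 of the other 7 genes were called, 3 higher and 1 lower, beside 42.4% of all genes called, 17.6% higher and 24.8% lower. In wild-type cells 3 of 7 were called, each higher, beside 59.4% of all genes called, 25.0% higher and 34.4% lower, and without wild-type PDGF-BB replicate 1 5 of 7 were called, 3 higher and 2 lower. The median log2 change of the 7 genes was 0.33 in labelled knockout and -0.15 in wild-type cells, and that of all genes was -0.07 in labelled knockout and -0.08 in wild-type cells. The 2 responses share no library.

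Plpp2 had 57.4, 55.4 and 58.2 CPM with PDGF-BB in labelled knockout cells, against 34.7, 40.2 and 41.2 CPM untreated, a log2 change of 0.55 (SE 0.11, adjusted p = 0.00128 by limma-trend). In wild-type cells it had 83.8, 62.1 and 60.9 CPM with PDGF-BB, against 37.7, 41.1 and 41.5 CPM untreated. That change was 0.75 (SE 0.11, adjusted p = 6.14e-05 by limma-trend), and 0.61 without replicate 1 of the treated cells, the highest library. Treated and untreated libraries did not overlap in either genotype.

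Plpp3 reached 183, 180.0 and 183 CPM with PDGF-BB in labelled knockout cells, against 125, 111 and 113 CPM untreated. It reached 198, 210 and 214 CPM with PDGF-BB in wild-type cells, against 147, 151 and 148 CPM untreated. The groups did not overlap, and the log2 changes were 0.64 (SE 0.06, adjusted p = 3.22e-06) in labelled knockout and 0.48 (SE 0.06, adjusted p = 2.02e-05) in wild-type cells by limma-trend. Plpp1, the other phosphatase, was not called in either genotype, with log2 changes of -0.03 (95% interval -0.26 to 0.19) in labelled knockout and -0.18 (-0.40 to 0.04) in wild-type cells. In wild-type cells that of Plpp1 passed without replicate 1 of the treated cells (-0.24, adjusted p = 0.0291 by limma-trend).

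Lpar1 rose with PDGF-BB in labelled knockout cells by 0.46 on the log2 scale (SE 0.08, adjusted p = 0.000411 by limma-trend), to a mean of 59.3 CPM against 42.9 CPM untreated. It rose by 0.55 in wild-type cells (SE 0.08, adjusted p = 4.88e-05 by limma-trend), to 100.6 CPM against 68.3 CPM untreated. In CPM, treated labelled knockout libraries lay below untreated wild-type ones, at 57.7 to 60.9 CPM against 64.5 to 72.4 CPM. This gap was not tested and depends on the scaling. TMM scaling moved the median of all genes by 0.12 between untreated genotypes and by 0.049 with PDGF-BB in labelled knockout cells.

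Lpar3 had 1.06, 2.58 and 1.37 CPM with PDGF-BB in labelled knockout cells, against 0.589, 0.201 and 0.723 CPM untreated. In wild-type cells it had 1.15, 0.598 and 0.920 CPM with PDGF-BB, against 0.567, 0.0509 and 0.0596 CPM untreated. The log2 differences were 0.80 in labelled knockout (SE 0.23) and 0.64 in wild-type cells (SE 0.23), and treated libraries lay above untreated ones in both genotypes.

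Lpar4 fell with PDGF-BB in labelled knockout cells by 0.49 on the log2 scale (SE 0.15, adjusted p = 0.0172 by limma-trend), a call lost with no filter (adjusted p = 0.0741) and without untreated replicate 1 (0.0788) or 2 (0.0558) or treated replicate 1 (0.0727). In wild-type cells its change of -0.36 (SE 0.15) did not pass (adjusted p = 0.0541), although treated libraries lay below untreated ones. It passed without labelled knockout untreated replicate 1 (adjusted p = 0.0397) or 3 (0.0291), wild-type untreated replicate 1 (0.0477) or wild-type PDGF-BB replicate 3 (0.0434). For Lpar6 the change was -0.19 (SE 0.12, adjusted p = 0.222) in labelled knockout and -0.28 (SE 0.12, adjusted p = 0.0579) in wild-type cells. For Lpar2 it was 0.33 (SE 0.14, adjusted p = 0.0746) in labelled knockout and -0.15 (SE 0.14, adjusted p = 0.355) in wild-type cells. That of Lpar6 in wild-type cells passed without treated replicate 1 (adjusted p = 0.0357) or 2 (0.0197). That of Lpar2 in labelled knockout cells passed under TMM scaling (0.38, adjusted p = 0.0441), with edgeR (0.43, adjusted p = 0.0494), in a fit of the compared groups alone (adjusted p = 0.0406) and without wild-type PDGF-BB replicate 1 (adjusted p = 0.0286).

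**Figure D2:**
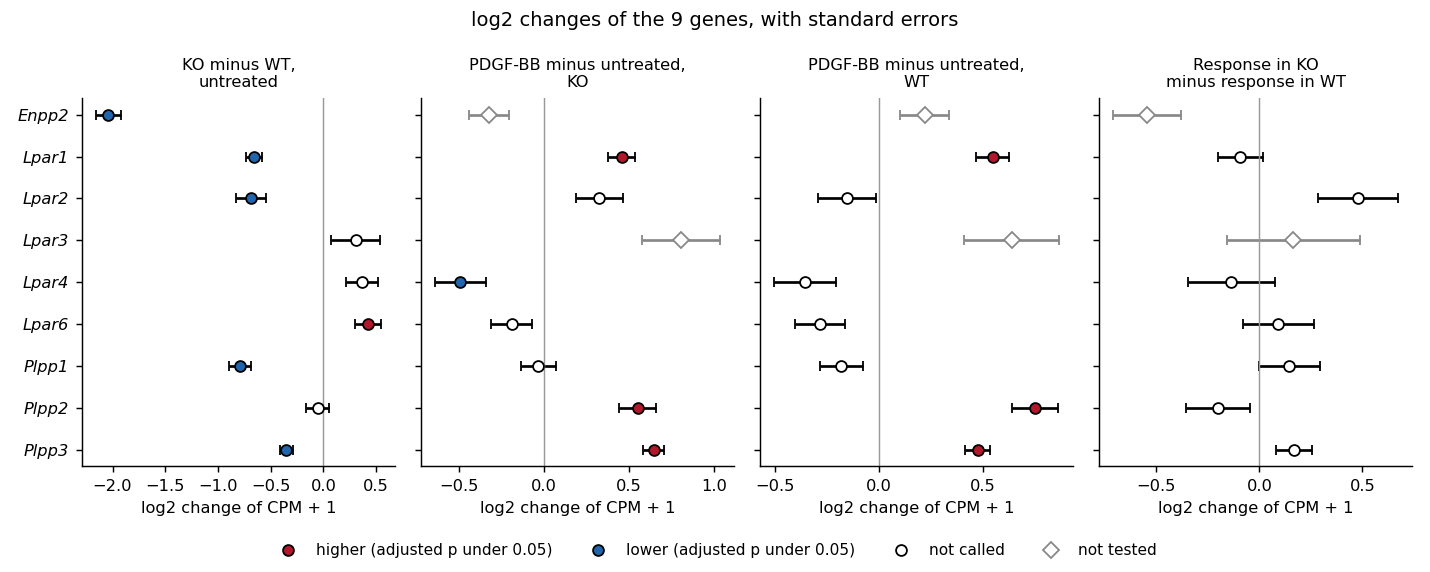
Log2 change of each gene on the log2(CPM + 1) scale, bars 1 SE to each side, 1 panel per comparison with its own axis. Red (higher) and blue (lower) points passed an adjusted p of 0.05 by limma-trend, open circles did not, and grey diamonds are values of Enpp2 and Lpar3 with no test; Lpar1, Plpp2 and Plpp3 lie above 0 with PDGF-BB in both genotypes.

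The difference between the 2 responses was tested for the 7 genes other than Enpp2 and Lpar3. By limma-trend 0 of 7 passed, by edgeR 0 and by DESeq2 0, and 1 had an unadjusted p under 0.05 with each tool. Over all genes 3.92% were called, 2.25% higher and 1.68% lower, and of these calls 57.3% were higher here, 46.7% under TMM scaling and 46.0% with edgeR. The gene with the low unadjusted p was Lpar2. Its interaction was 0.48 on the log2 scale (95% interval 0.06 to 0.90, adjusted p = 0.202 by limma-trend). Without wild-type PDGF-BB replicate 1, 0 genes of the set had an unadjusted p under 0.05 by limma-trend. For Lpar1 the interval ran from -0.33 to 0.14, for Plpp3 from -0.02 to 0.35 and for Plpp2 from -0.54 to 0.13. These intervals leave room for unlike responses of those sizes. The interaction of Enpp2 was -0.54 (SE 0.17), a description only, and -0.39 without labelled knockout untreated replicate 1.

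With PDGF-BB present, the labelled knockout minus wild-type differences were, as descriptions, -0.75 for Lpar1, -0.21 for Lpar2, 0.47 for Lpar3, 0.23 for Lpar4 and 0.52 for Lpar6 on the log2 scale. For the phosphatases they were -0.65 for Plpp1, -0.26 for Plpp2 and -0.18 for Plpp3. That of Plpp3 was -0.076 under TMM scaling, -0.078 with edgeR and -0.054 with DESeq2. For Lpar3 the value was 0.79 with a pseudocount of 0.1, 1.01 with edgeR and 1.04 with DESeq2, and for Lpar4 it was 0.42 with edgeR and 0.44 with DESeq2. Labelled knockout libraries lay below wild-type ones without overlap for Enpp2, Lpar1, Plpp1, Plpp2 and Plpp3, and above for Lpar6. The share of all genes that lay apart in this way was not counted, so the list is not set against it.

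Divided by the deposited exon length, the phosphatase transcripts were the most abundant of the set and Lpar1 led the receptors in every group. Plpp3 stood at 57.6 CPM per kb in labelled knockout cells with PDGF-BB and 65.6 in wild-type cells with PDGF-BB, and at 36.8 in labelled knockout untreated and 47.0 in wild-type untreated cells. Plpp1 stood at 51.4 CPM per kb in labelled knockout and 81.0 in wild-type cells with PDGF-BB, and at 53.2 in labelled knockout and 91.9 in wild-type untreated cells, and was above Plpp3 except in labelled knockout cells with PDGF-BB. Plpp2 came next, at 34.4 CPM per kb in labelled knockout and 41.7 in wild-type cells with PDGF-BB, and at 23.4 in labelled knockout and 24.3 in wild-type untreated cells. Lpar1 followed, at 17.2 CPM per kb in labelled knockout and 29.3 in wild-type cells with PDGF-BB, and at 12.5 in labelled knockout and 19.9 in wild-type untreated cells. None of these neighbours overlapped between libraries within a group.

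Enpp2 came below Lpar1 in each group, at 2.47 CPM per kb in labelled knockout and 16.5 in wild-type cells with PDGF-BB, and at 3.22 in labelled knockout and 14.1 in wild-type untreated cells. In both labelled knockout groups its libraries overlapped those of Lpar6. The deposited length of Enpp2 is 3095 bases, against 5779 exonic bases in GENCODE, and with the longer length it came below Lpar6 in both labelled knockout groups. Lpar6 stood at 2.25 CPM per kb in labelled knockout and 1.53 in wild-type cells with PDGF-BB, and at 2.60 in labelled knockout and 1.89 in wild-type untreated cells. The order of the lowest receptors changed with the group: Lpar2 and Lpar6 overlapped in wild-type cells with PDGF-BB, Lpar3 and Lpar4 in labelled knockout cells with PDGF-BB, and Lpar2 and Lpar4 in labelled knockout untreated cells. Lpar3 was lowest in the other 3 groups.

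The makeup of the receptor RNA was not the same in the 4 groups. Lpar1 held 78.3 ± 1.63% of the summed CPM per kb of the 5 receptors in labelled knockout and 88.3 ± 1.37% in wild-type cells with PDGF-BB (SD, n = 3). In untreated cells it held 72.3 ± 1.22% in labelled knockout and 82.1 ± 1.61% in wild-type. Lpar6 held 10.2 ± 0.756% in labelled knockout and 4.65 ± 1.01% in wild-type cells with PDGF-BB, and 15.0 ± 1.27% in labelled knockout and 7.81 ± 0.466% in wild-type untreated cells. The summed level of the 5 receptors was 22.0 ± 0.845 CPM per kb in labelled knockout and 33.1 ± 3.03 in wild-type cells with PDGF-BB, and 17.3 ± 0.127 in labelled knockout and 24.2 ± 0.926 in wild-type untreated cells.

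Among the phosphatases, Plpp1 held 35.8 ± 0.328% of the summed CPM per kb in labelled knockout and 43.0 ± 0.773% in wild-type cells with PDGF-BB. In untreated cells it held 46.7 ± 4.16% in labelled knockout and 56.3 ± 1.25% in wild-type. Plpp3 held 40.2 ± 0.440% in labelled knockout and 35.0 ± 3.37% in wild-type cells with PDGF-BB, and 32.7 ± 4.52% in labelled knockout and 28.8 ± 1.11% in wild-type untreated cells. The shares of Plpp3 overlapped between genotypes in untreated cells, from 29.8 to 37.9% in labelled knockout and from 27.8 to 30.0% in wild-type. Shares of a sum are tied to each other and were not tested.

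**Figure D3:**
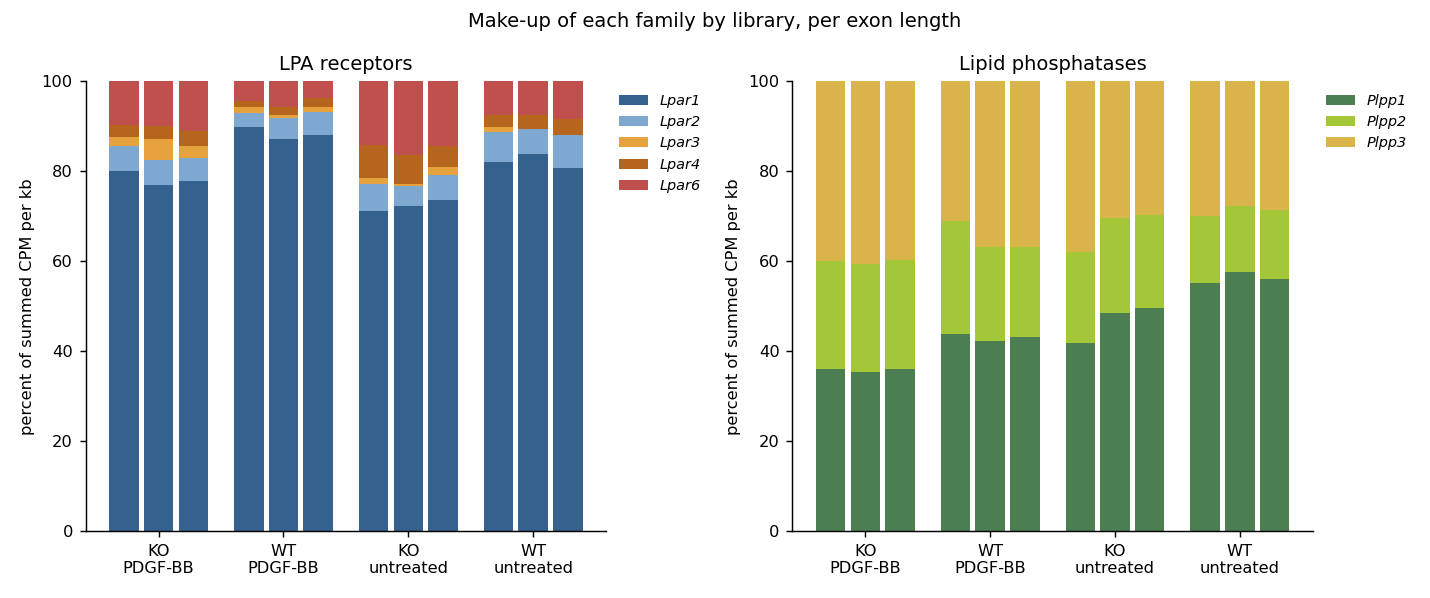
Share, in percent, of each gene in the summed CPM per kb of the 5 receptors and of the 3 phosphatases, stacked from 0 to 100% with 1 bar per library and 3 bars per group. Lpar1 takes 71.1 to 89.8% of the receptor bars, and Plpp1 takes more of the wild-type than of the labelled knockout phosphatase bars at each treatment.

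Other genes of the pathway were read from fixed lists, tested over all genes. Of all genes 34.0% were called in untreated cells, 24.8% lower and 9.15% higher. Of 5 other members of the ENPP family, ectoenzymes related to autotaxin, 4 differed in untreated cells, 2 lower and 2 higher in labelled knockout cells, and 2 without labelled knockout untreated replicate 2 or without wild-type untreated replicate 1. Enpp5 was lower by -0.90 on the log2 scale (SE 0.06), at 80.9 CPM in labelled knockout and 152 CPM in wild-type cells. Enpp1, which makes pyrophosphate from ATP, was lower by -0.58 (SE 0.16), at 10.3 CPM in labelled knockout and 15.9 CPM in wild-type cells. Enpp6 was higher by 1.02 (SE 0.20) and Enpp3 by 0.53 (SE 0.15), both with means below 3 CPM in untreated cells. Enpp6 reached 1 CPM in 7 libraries, mostly labelled knockout ones, so its call was in part fixed by the filter.

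With PDGF-BB, 3 of the 5 changed in each genotype, beside the 42.4% of all genes called in labelled knockout and 59.4% in wild-type cells. Enpp1 rose by 1.16 in labelled knockout (SE 0.16) and 1.35 in wild-type cells (SE 0.16). Enpp4 fell by 0.79 in labelled knockout and 1.23 in wild-type cells (SE 0.10 each), and Enpp5 fell by 0.45 in labelled knockout and 0.61 in wild-type cells (SE 0.06 each). The adjusted p of these 6 changes lay between 4.88e-07 and 7.80e-05 by limma-trend.

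Of 7 genes measured from a list of 10 that make LPA or its precursors by other routes, PDGF-BB lowered the same 4 in each genotype, Gdpd1, a lysophospholipase D inside cells, the phospholipase Pla2g6, and the phospholipases D Pld1 and Pld2. Gdpd1 fell by 0.76 in labelled knockout and 1.05 in wild-type cells (SE 0.12 each), and Pla2g6 fell by 0.51 in labelled knockout and 0.98 in wild-type cells (SE 0.11 each). The other 3 were not called in either genotype. Of all genes, 24.8% were called lower with PDGF-BB in labelled knockout and 34.4% in wild-type cells. In untreated cells 5 of the 7 were lower in labelled knockout cells, among them Pld2 by -0.51 (SE 0.08), beside 24.8% of all genes. Yet 1 of 7 was called under TMM scaling, 1 with edgeR and 1 with DESeq2. With no filter 2 were called, and 1 to 3 when any of the 6 untreated libraries was left out. Pla1a, 1 of the 5, reached 1 CPM only in wild-type libraries and so had to differ.

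Of 20 enzymes that make or convert LPA and phosphatidate inside cells, 19 were measured. PDGF-BB raised 5 and lowered 5 in labelled knockout cells, beside 42.4% of all genes called. It raised 8 and lowered 7 in wild-type cells, beside 59.4% of all genes called. Lpin3 rose by 0.98 in labelled knockout and 1.15 in wild-type cells (SE 0.10 each), and Agpat4 rose by 0.82 in labelled knockout and 0.87 in wild-type cells (SE 0.12 each). Lpin1, a phosphatidate phosphatase like Lpin3, fell by 0.54 in labelled knockout and 1.17 in wild-type cells (SE 0.12 each). In untreated cells 2 were higher, Lclat1 by 0.64 (SE 0.10) and Lpin3 by 0.59 (SE 0.10), and 4 were lower in labelled knockout cells, while TMM scaling gave 4 higher and 2 lower. The count of 6, beside 34.0% of all genes called, was 10 in a fit of the compared groups alone and 11 without wild-type PDGF-BB replicate 1.

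Of 11 other lipid phosphate phosphatases and related proteins, 6 were measured, and 1, Plppr3, was lower in labelled knockout untreated cells by -0.77 (SE 0.12), at 5.02 CPM in labelled knockout and 9.22 CPM in wild-type cells. Of all genes, limma-trend called 34.0% in untreated cells. For the list, TMM scaling, edgeR and DESeq2 each called 1 higher and 1 lower. PDGF-BB changed 2 in labelled knockout cells, beside 42.4% of all genes, and 1 without untreated replicate 1 or treated replicate 2 or 3. It changed 5 in wild-type cells, beside 59.4% of all genes, and 3 in a fit of the compared groups alone or without untreated replicate 2. Plpp6 fell in both, by 0.68 in labelled knockout and 0.72 in wild-type cells (SE 0.12 each). The LPA receptor genes Lpar5, P2ry10 and Gpr174 did not pass the filter, and Lpar5 had 0 to 7 reads per library.

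The sphingosine 1-phosphate branch, a sister lipid system whose ligand the same phosphatases can remove, had 8 of 10 genes measured. In untreated cells 4 of the 8 were called, beside 34.0% of all genes. In untreated cells Spns2, a sphingosine 1-phosphate exporter, was higher in labelled knockout cells by 1.70 (SE 0.12), at 21.5 CPM in labelled knockout and 5.87 CPM in wild-type cells, and the receptor gene S1pr1 by 1.38 (SE 0.08), at 30.8 CPM in labelled knockout and 11.2 CPM in wild-type cells. S1pr3 was lower by -0.78 (SE 0.12) and S1pr2 by -0.65 (SE 0.06). S1pr1 is also expressed by endothelium, whose markers were higher in the same cells; their part in the result was not tested. PDGF-BB raised 3 and lowered 1 in labelled knockout cells, beside 42.4% of all genes called. It raised 5 and lowered 1 in wild-type cells, beside 59.4% of all genes called. S1pr3 rose by 2.24 in labelled knockout and 2.05 in wild-type cells (SE 0.12 each), and the kinase gene Sphk1 rose by 1.46 in labelled knockout and 1.65 in wild-type cells (SE 0.14 each).

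In the interaction, limma-trend called 0 of the 19 enzymes inside cells (5 with an unadjusted p under 0.05), edgeR 0 and DESeq2 2, and limma-trend called 4 without wild-type PDGF-BB replicate 1 and 1 without its replicate 3 or labelled knockout untreated replicate 1. Of the 8 sphingosine 1-phosphate genes limma-trend called 0 (1 with an unadjusted p under 0.05), and edgeR, DESeq2 and the fit without wild-type PDGF-BB replicate 1 called 1 each. Of all genes limma-trend called 3.92%.

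**Figure D4:**
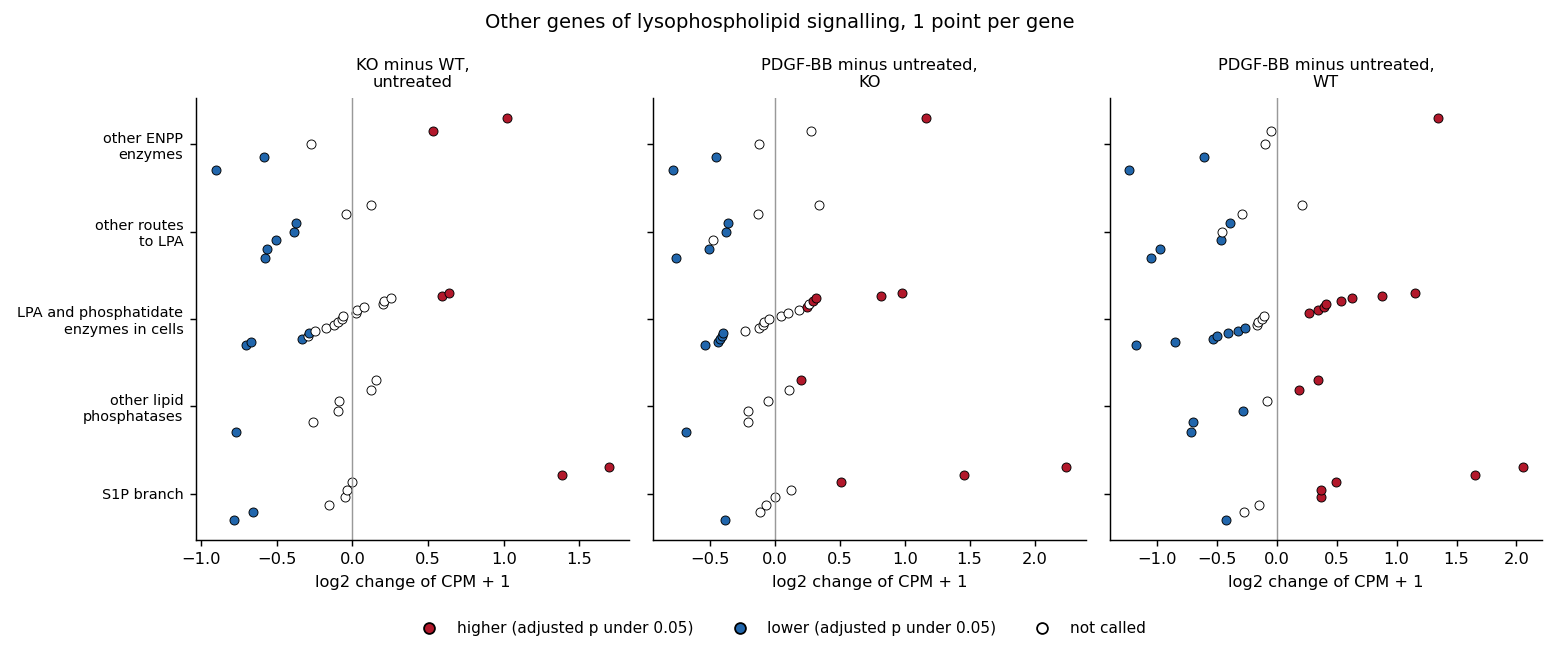
Log2 change of every measured gene of each list on the log2(CPM + 1) scale, 1 panel per comparison with its own axis and 1 row per list. Red (higher) and blue (lower) points passed an adjusted p of 0.05 by limma-trend, open points did not; with PDGF-BB, Gdpd1, Pla2g6, Pld1 and Pld2 lie below 0 in both genotypes and S1pr3 lies above 2 in both.

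Genes were ranked by Pearson's r with Enpp2 of log2(CPM + 1) across the 12 libraries. The ranking took the genes kept by the filter, without the members and predicted gene models (Gm and Rik names). The most alike were Tgfbr3 (r = 0.992), Serpine2 (0.992), Rgma (0.991), Mrc2 (0.990), Sim2 (0.987) and Dio3 (0.987). Sim2 had 0.227 CPM in labelled knockout and 1.09 CPM in wild-type untreated cells. With PDGF-BB it had 0.127 CPM in labelled knockout and 1.36 CPM in wild-type cells. It passed the filter on low values only through wild-type libraries, so its likeness was in part fixed by the filter. Of the genes ranked, 109 (0.864%) had r above 0.95 and 361 (2.86%) had r above 0.9. The points share 4 group means. Tgfbr3, the TGF-beta co-receptor betaglycan, had 19.6 ± 0.489 CPM in labelled knockout and 82.3 ± 13.2 CPM in wild-type cells with PDGF-BB, and 21.6 ± 2.80 CPM in labelled knockout and 69.4 ± 2.11 CPM in wild-type untreated cells (SD, n = 3). Dio3, an imprinted gene for the deiodinase that inactivates thyroid hormone, had 1.21 ± 0.218 CPM in labelled knockout and 16.2 ± 4.16 CPM in wild-type cells with PDGF-BB, and 1.78 ± 0.532 CPM in labelled knockout and 14.7 ± 0.727 CPM in wild-type untreated cells. Within the set, r with Enpp2 was 0.892 for Plpp1, 0.783 for Lpar1, 0.726 for Lpar2 and -0.812 for Lpar6.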

How the data were processed

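Total RNA of 12 samples went into stranded poly(A) libraries, per the labels' protocols. Per the submitters' processing notes, alignment to mm10 used HISAT2 and counting used HTSeq, and the assembly is GRCm38.p6, per the file headers; the versions and the strand setting are not given in the sources used here. The deposited values are CPM although the table's name says FPKM: every library sums to 1000000, and 100% of values are whole reads within 0.001 read.

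Genes with CPM of at least 1 in at least 3 of 12 libraries were kept (14202 of 55487, all 9 members among them). The test was limma-trend (limma 3.58.1, R 4.3.3) on log2(CPM + 1), 1 mean per group, all 12 libraries in the fit, 2-sided, with Benjamini-Hochberg adjustment over the kept genes and a threshold of 0.05. Fold changes on this scale understate those of low genes. SE and 95% intervals come from that fit, SD from the 3 libraries of a group. Alternatives changed the pseudocount, filter, scaling, groups fitted, replicate block and the tool, with recovered reads in edgeR 4.0.16 or DESeq2 1.42.0. Each of the 12 libraries was also left out. Levels per kb used the deposited exon lengths, and GENCODE lengths as an alternative added after seeing the data; the counts of called members without Lpar3 were also added then. The procedure was tested on simulated data.

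The members, gene lists and tests were chosen with earlier results of these data known. The genes named are the 9 members, up to 4 called genes per list and comparison by size of change (1 list is not reported here), and the 6 genes most like Enpp2 across libraries. The replicate numbers were checked for pairing: same-numbered libraries had correlated deviations of -0.231 to 0.175, with 3 of 18 above 0.1, and were not treated as pairs.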

Additional observations from a re-analysis of the deposited data

Results flagged for a closer look

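Enpp2 changed in opposite directions with PDGF-BB in the 2 genotypes: each treated library lay below each untreated one in labelled knockout cells and above each untreated one in wild-type cells. In labelled knockout cells the closest libraries stood at 8.27 CPM with PDGF-BB and 8.43 CPM untreated. The share of all genes that part in this way was not counted. Without labelled knockout untreated replicate 1 the labelled knockout change was -0.16 on the log2(CPM + 1) scale. The labelled knockout change minus the wild-type change was -0.544864, and -0.39 without that replicate. The difference was not tested, since the PDGF-BB values of Enpp2 chose the gene set.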

How the results depend on the processing

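With the replicate number as a replicate block, 6 of 9 members were called between genotypes in untreated cells, 4 of 8 with PDGF-BB in wild-type, 5 of 8 in labelled knockout cells and 0 of 8 in the interaction, over 4488, 8200, 5715 and 417 genes called; the block changed no count of members. These counts and those of member tests include Lpar3, which the report leaves untested with PDGF-BB; without it 3 to 5 of 7 were called in labelled knockout cells over the alternatives, 3 to 5 in wild-type cells and 0 in the interaction. The block is not used in the report, because the labels do not say that the numbers pair the libraries and the check of deviations did not show a pairing. That check took in same-numbered libraries across genotypes, so it cannot exclude a pairing within a genotype. Of the member tests under alternatives, 576 kept direction and call, 16 passed where the main test did not, 13 no longer passed and 13 changed sign. None of the 13 was called by the main test. For Plpp2 between genotypes untreated the log2 difference was 0.078 under TMM scaling, 0.084 with edgeR and 0.096 with DESeq2, and -0.099 to 0.020 when 1 library was left out, above 0 without labelled knockout untreated replicate 1. For Plpp1 with PDGF-BB in labelled knockout cells it was 0.020 under TMM scaling and 0.0049 with edgeR, and -0.17 to 0.056 when 1 library was left out, above 0 without untreated replicate 2 or 3. The interaction of Lpar3 was -0.35 with a pseudocount of 0.1, -0.38 with edgeR and -0.067 to 0.33 when 1 library was left out, below 0 without wild-type untreated replicate 1 or labelled knockout PDGF-BB replicate 2. That of Lpar6 was -0.042 to 0.19, below 0 without wild-type PDGF-BB replicate 3. The interaction called 371 genes with no filter and 905 with DESeq2, and 272 to 1548 when 1 library was left out, the highest without wild-type PDGF-BB replicate 1 and 894 without replicate 3. Members called with PDGF-BB in labelled knockout cells numbered 3 to 6 when 1 library was left out, 3 without untreated replicate 2. The causes were not tested. Depth limits Lpar3, with 1 to 9 reads in wild-type untreated libraries.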
